A study of Mus musculus with 6 samples.

Results

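The apicobasal polarity genes described here are the 10 core members of the Crumbs, Par and Scribble complexes, picked by symbol from a table of 41214 mouse genes. They are Crb3, Mpp5 and Inadl of the Crumbs complex, Pard3, Pard6b and Prkci of the Par complex, and Llgl1, Llgl2, Scrib and Dlg1 of the Scribble module. No measured value entered the rule that picked them, but the symbols were listed with earlier results of these data known. All 10 passed the filter on low reads. RNA came from cultured mammary tumor explant cells of the NMuMG line, which is mouse mammary epithelium, that express Neu-NT, an activated form of ErbB2. Both groups carry Neu-NT: 3 libraries are of cells with a control hairpin (genotype Neu-NT shCON) and 3 of cells in which a short hairpin RNA targets CdGAP (genotype Neu-NT shCdGAP). CdGAP is the product of Arhgap31 and switches off Cdc42 and Rac1 by raising their GTP hydrolysis. All cells grew in medium with 10% serum, 10 µg/ml insulin and 600 µg/ml G418. The cell type label names the control hairpin for all 6 samples, so the genotype labels set the groups. The labels give neither the number of hairpins, clones or tumors nor whether replicates were separate cultures. The p-values therefore reflect the spread of these libraries alone, part of which may be technical.

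Epithelial cells keep an apical surface apart from their basal and lateral sides through these 3 groups of proteins. The Crumbs complex marks the apical membrane, the Par complex carries kinase activity at and above the junctions, and the Scribble module holds the lateral membrane. The apical and lateral sets exclude each other: atypical protein kinase C phosphorylates Lgl proteins and drives them off the apical membrane. Cdc42, a substrate of CdGAP, binds Par6 in its active form. Zeb1 and Snai1, repressors of the E-cadherin gene, have also been described as repressors of Crumbs3, and Zeb1 as a repressor of the human counterparts of Llgl2 and Inadl.

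The libraries held 19176540 to 26824249 gene-assigned reads. In shCdGAP, replicate 1 correlated less with its group than the others did. Over log2 values of all tested genes its r was 0.948 with replicate 2 and 0.938 with replicate 3. Replicates 2 and 3 correlated at 0.996 with each other. Arhgap31 read 0.149, 0.826 and 0.748 FPKM in shCdGAP replicates 1, 2 and 3 and 1.19, 1.30 and 1.35 FPKM in shCON. FPKM, as the authors computed them, are fragments per kilobase of gene. They are scaled by a size factor for each library and not by its total of reads. Arhgap31 was lower in every shCdGAP library, but its log2 fold change of -0.56 missed the threshold (adjusted p = 0.0836, limma) except without shCdGAP replicate 1 (-0.35, adjusted p = 0.0157) or both libraries numbered 1 (-0.38, adjusted p = 0.00851). The luminal keratins Krt8 and Krt18 were at 1491 FPKM or more in every library. Krt7, another luminal keratin, was at 0.981 FPKM or less throughout. Epcam, another epithelial marker, was listed at 0 in all shCdGAP libraries and reached 0.812 FPKM in shCON. All 6 markers of basal epithelium, all 6 of fibroblasts and all 5 of endothelium were under 1 FPKM throughout. The 6 macrophage and leukocyte markers summed to 64.8 to 129 FPKM in shCdGAP and 107 to 113 in shCON, most of it Cd14, with Adgre1 at 0 and Ptprc at most at 0.0197 FPKM. Cd68, a lysosomal protein of macrophages from the same list, read 17.3, 12.2 and 12.3 FPKM in shCON and 8.45, 4.42 and 2.37 in shCdGAP and fell by 1.41 on the log2 scale (adjusted p = 0.0465, limma). That call did not hold without shCON replicate 1, 2 or 3 or shCdGAP replicate 2 or 3 (adjusted p = 0.151, 0.122, 0.121, 0.129 and 0.0703) or without a filter (adjusted p = 0.0763). The part of this marker in the member values was not tested.

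Of the 10 polarity genes, 4 rose in shCdGAP cells (Crb3, Llgl2, Inadl and Prkci), 0 fell and 6 did not pass the test (limma, adjusted p under 0.05). Over all 13483 tested genes 21.0% passed: 9.92% were higher and 11.1% lower. By the ratio of mean FPKM, Crb3 was 10.3-fold higher, Inadl 4.37-fold, Llgl2 3.27-fold and Prkci 1.52-fold. Each complex held at least 1 gene that rose and at least 1 that did not pass. The median log2 fold change of the 10 genes was 0.089, against -0.0100 over all tested genes. The libraries of the groups did not overlap for the same 4 genes, all higher; over all tested genes this held for 44.1%, of which the higher ones made up 21.8% of the tested genes. The authors' deposited comparison also called these 4 and no other member, where it called 23.8% of its genes with an adjusted p and 11.3% as higher. In the fit blocked on replicate number 4 members were called higher, where 18.2% of tested genes passed and 8.37% passed as higher. In bulk RNA, a change in the share of cells with a transcript and a change in transcript per cell cannot be told apart.

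**Figure D1:**
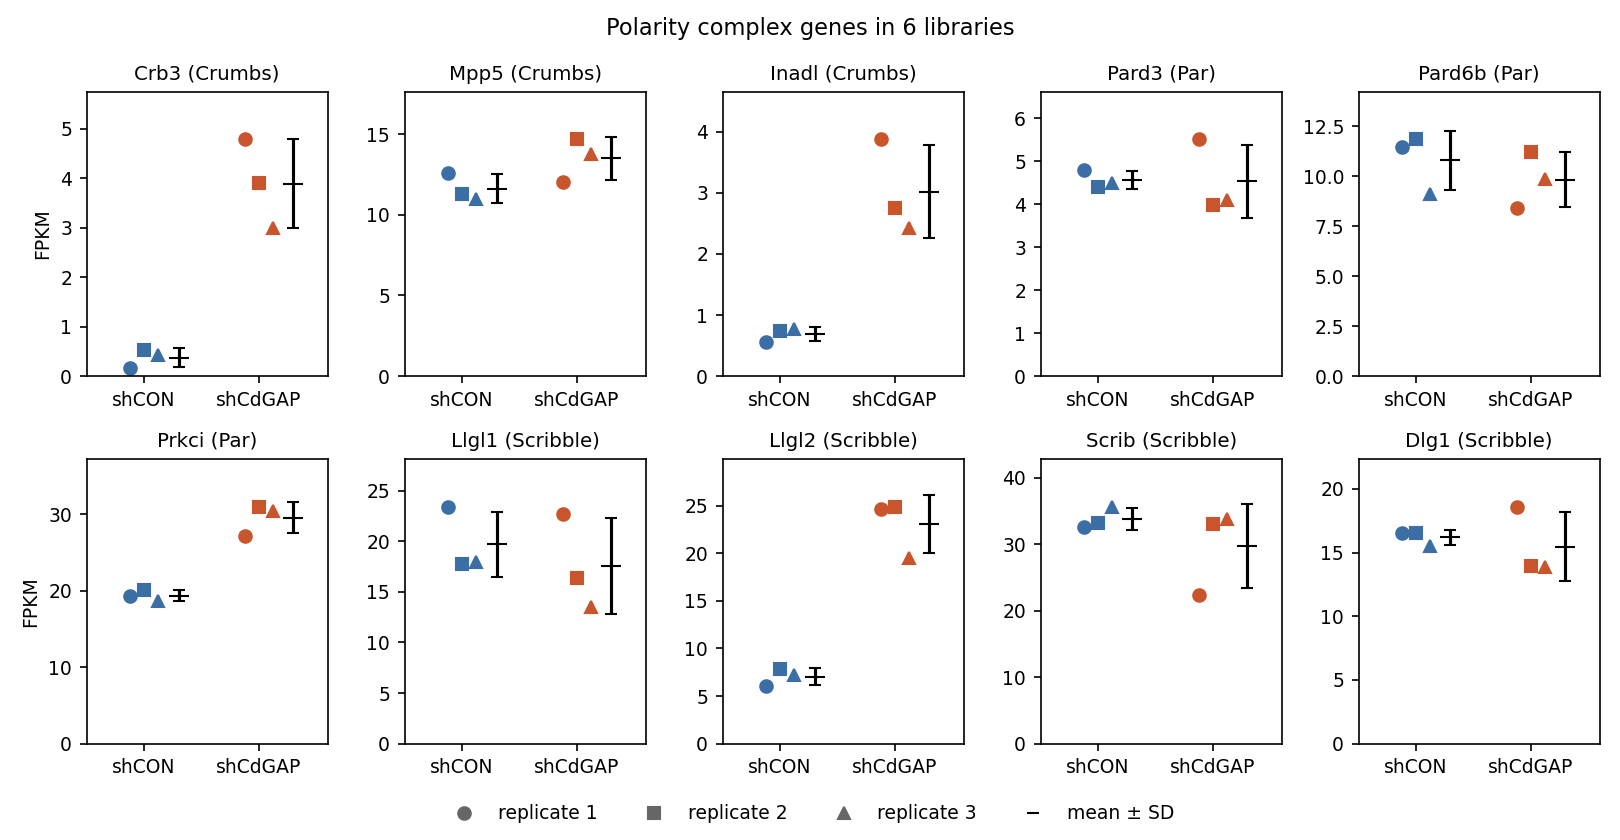
FPKM (vertical axis, from 0) of each polarity gene in the 3 shCON and 3 shCdGAP libraries, with marker shape giving the replicate and the black bar the mean ± SD of 3 libraries. For Crb3, Inadl, Llgl2 and Prkci every shCdGAP library lies above every shCON library, and Scrib has 1 shCdGAP library, replicate 1, far below the other 5.

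Crb3 is the small transmembrane Crumbs protein of most epithelia, whose tail binds Mpp5 and Pard6. The gene (ENSMUSG00000044279, chromosome 17, 57059105 to 57065918 of mm10, plus strand) read 0.166, 0.535 and 0.430 FPKM in shCON replicates 1, 2 and 3 and 4.78, 3.90 and 2.99 FPKM in shCdGAP. Those levels rest on 5, 23 and 18 reads in shCON and on 171, 134 and 116 in shCdGAP. It was thus near the limit of counting in control cells and well counted in every depleted library. The exact Poisson 95% interval, which covers counting error only, ran from 0.0537 to 0.386 FPKM in shCON replicate 1 and from 2.47 to 3.58 in shCdGAP replicate 3. The group means were 3.89 ± 0.898 FPKM in shCdGAP and 0.377 ± 0.190 in shCON (SD, n = 3). On the log2 scale Crb3 rose by 1.82 (SE 0.18, adjusted p = 0.00150, limma). That scale adds 1 FPKM and shrinks the change of so low a gene; with 0.1 FPKM added the value was 3.13. The authors' deposited table gives 3.05 (SE 0.38) for Crb3. Exons of Crb3 share 14 bases with Dennd1c on the opposite strand, which was listed at 0 in every library.

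Inadl, now named Patj, encodes the scaffold with many PDZ domains at the inner end of the Crumbs complex. It lies on chromosome 4 (ENSMUSG00000061859, 98395785 to 98719603, plus strand). Inadl read 0.562, 0.742 and 0.771 FPKM in shCON and 3.88, 2.75 and 2.43 in shCdGAP replicates 1, 2 and 3, from 142, 267 and 270 and 1160, 790 and 790 reads. All shCdGAP libraries were above all shCON libraries, replicate 1 the highest. Inadl rose by 1.23 on the log2 scale (SE 0.15, adjusted p = 0.00366, limma), and by 1.96 with 0.1 FPKM added.

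Mpp5, or PALS1, is the adapter that holds Crb3 and Inadl together. It lies on chromosome 12 (ENSMUSG00000021112, 78748907 to 78840714, plus strand). Mpp5 read 12.6, 11.3 and 11 FPKM in shCON and 12, 14.7 and 13.8 in shCdGAP, and the groups overlapped. Its log2 fold change of 0.20 had a 95% interval from -0.075 to 0.47 (adjusted p = 0.271, limma). Without both libraries numbered 1, Mpp5 passed as higher (0.33, adjusted p = 0.00919), in a fit where 48.3% of tested genes passed and 24.3% passed as higher. In control cells the adapter had a far higher level per length than both of its partners: its mean in shCON was 11.6 ± 0.876 FPKM (SD, n = 3), against 0.377 for Crb3 and 0.692 for Inadl.

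In the Par complex 1 of 3 genes rose. Prkci encodes the atypical protein kinase C iota, the kinase of the complex (ENSMUSG00000037643, chromosome 3, 30995747 to 31052959, plus strand). It read 19.3, 20.1 and 18.6 FPKM in shCON and 27.2, 30.9 and 30.4 in shCdGAP. The groups lay apart by more than their spread, with means of 19.4 ± 0.747 and 29.5 ± 2.03 FPKM (SD, n = 3). Prkci rose by 0.58 on the log2 scale (SE 0.095, adjusted p = 0.00901, limma). This was the 1 call on a member that leaving out a single library removed: without shCON replicate 3 the value for Prkci was 0.56 (adjusted p = 0.0576, limma).

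Pard3 and Pard6b, the scaffold and the Cdc42-binding adapter that bring the kinase to the membrane, did not pass. Pard3 (ENSMUSG00000025812, chromosome 8, 127063893 to 127612286, plus strand) read 4.80, 4.41 and 4.49 FPKM in shCON and 5.50, 3.98 and 4.10 in shCdGAP. Its shCdGAP replicate 1 was above every control library and its replicates 2 and 3 below every one. The 95% interval of its log2 fold change, -0.019, ran from -0.34 to 0.30 (adjusted p = 0.939, limma), and the sign differed between settings. Pard6b (ENSMUSG00000044641, chromosome 2, 168081004 to 168101203, plus strand) read 11.5, 11.9 and 9.13 FPKM in shCON and 8.43, 11.2 and 9.87 in shCdGAP. The groups overlapped, and its log2 fold change of -0.12 had an interval from -0.48 to 0.23 (adjusted p = 0.60, limma).

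In the Scribble module 1 of 4 genes rose. Llgl2 encodes the Lgl protein found mainly in epithelia, a substrate of the Par complex kinase. It lies on chromosome 11 (ENSMUSG00000020782, 115824049 to 115855780, plus strand). Llgl2 read 6.04, 7.86 and 7.24 FPKM in shCON and 24.7, 24.9 and 19.5 in shCdGAP. Its lowest depleted library was far above its highest control library, with group means of 7.04 ± 0.925 in shCON and 23.0 ± 3.04 FPKM in shCdGAP (SD, n = 3). Llgl2 rose by 1.58 on the log2 scale (SE 0.14, adjusted p = 0.00114, limma).

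Llgl1, the more widely expressed Lgl gene on the same chromosome (ENSMUSG00000020536, 60699723 to 60714186, plus strand), read 23.4, 17.7 and 17.9 FPKM in shCON and 22.7, 16.4 and 13.5 in shCdGAP. Replicate 1 was the highest library in both groups. Its log2 fold change of -0.18 had an interval from -0.69 to 0.34 (adjusted p = 0.601, limma). Its exons share 64 bases with Flii on the opposite strand, a gene of 32.6 FPKM in control and 30.5 in depleted cells whose reads cannot be told apart there without strand.

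Scrib and Dlg1 are the scaffolds of the lateral membrane. Scrib (ENSMUSG00000022568, chromosome 15, 76047158 to 76069784, minus strand) was the member with the highest mean level per length in both groups. It read 32.6, 33.1 and 35.6 FPKM in shCON and 22.4, 33.1 and 33.7 in shCdGAP. Its log2 fold change of -0.20 had an interval from -0.62 to 0.22 (adjusted p = 0.466, limma) and was -0.015 without the low shCdGAP replicate 1. Dlg1 (ENSMUSG00000022770, chromosome 16, 31663443 to 31875129, plus strand) read 16.5, 16.5 and 15.5 FPKM in shCON and 18.6, 14 and 13.9 in shCdGAP. Its log2 fold change of -0.073 had an interval from -0.40 to 0.25 (adjusted p = 0.743, limma) and was -0.20 without shCdGAP replicate 1 (adjusted p = 0.0698). For each of the 6 members that did not pass, a change within its own interval is not excluded.

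**Figure D2:**
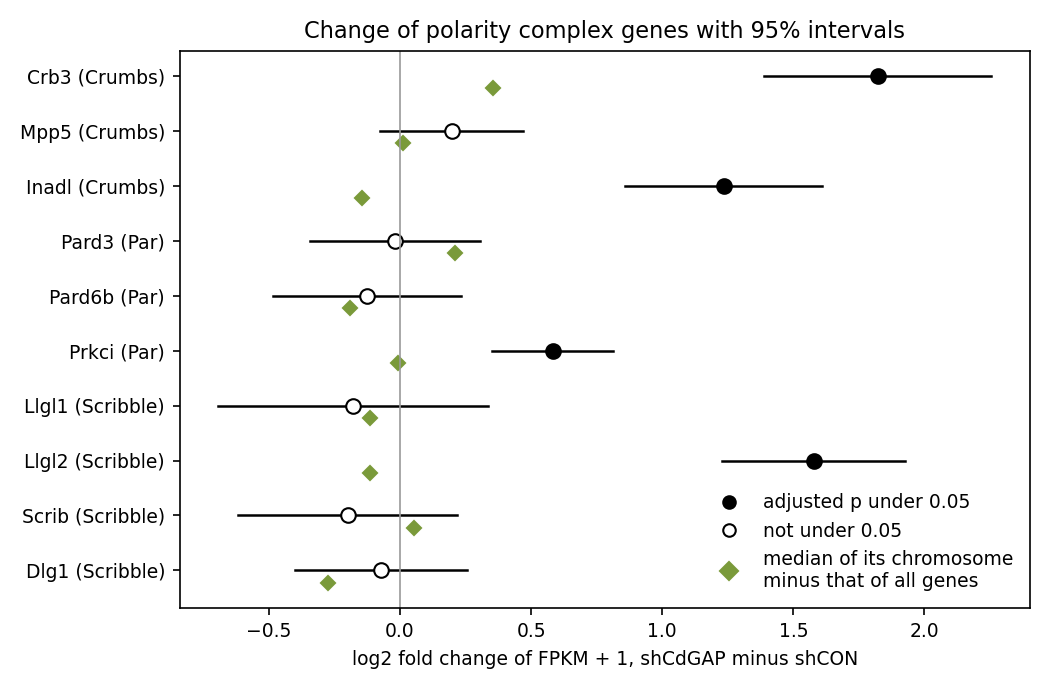
Log2 fold change of FPKM + 1, shCdGAP minus shCON (horizontal axis), for each polarity gene with its 95% interval from limma; filled points passed an adjusted p of 0.05, and green diamonds give the median of the genes on the same chromosome relative to all genes. The 4 filled points lie from 0.58 to 1.82 with intervals above 0, and the 6 open points have intervals that include 0.

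Whole chromosomes differed between the groups, and their medians are given beside the members without a test. Among genes averaging 3 FPKM or more, the median log2 fold change relative to all such genes was 0.36 on chromosome 17, which holds Crb3, and -0.15 on chromosome 4, which holds Inadl. The value of chromosome 17 was the highest of the chromosomes ranked, which left out those with few such genes. It was -0.0091 on chromosome 3 (Prkci) and -0.11 on chromosome 11 (Llgl1 and Llgl2). Set against its chromosome, the change of Crb3 was 1.47, of Inadl 1.38, of Llgl2 1.69 and of Prkci 0.59 on the log2 scale. Dlg1 lies on chromosome 16, where the median was -0.27, the lowest of the chromosomes ranked, and its own change stood 0.20 above that. The part of these chromosome medians in the member values was not tested.

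The members were then ordered by mean level per length. In shCON the order ran from Scrib (33.8 FPKM) through Llgl1, Prkci, Dlg1, Mpp5, Pard6b, Llgl2 and Pard3 to Inadl and Crb3. The libraries of Llgl1 and Prkci overlapped, as did those of Mpp5 and Pard6b, and the other neighbouring pairs were separate. In shCdGAP it ran Scrib, Prkci, Llgl2, Llgl1, Dlg1, Mpp5, Pard6b, Pard3, Crb3 and Inadl. There Prkci and Llgl2, Mpp5 and Pard6b, and Pard6b and Pard3 were separate, and the other neighbouring pairs overlapped. Llgl2 thus stood in the seventh place in shCON and in the third in shCdGAP. Crb3, far below Pard3 in shCON, overlapped it in shCdGAP.

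Several members have paralogs, and the make-up of those families was compared as shares of summed FPKM. Llgl2 held 20.5%, 30.7% and 28.8% of Llgl1 and Llgl2 in shCON replicates 1, 2 and 3 and 52.1%, 60.3% and 59.2% in shCdGAP. Llgl1 was the main Lgl transcript in every control library and Llgl2 in every depleted one, and the sum was 26.7 ± 2.36 FPKM in shCON and 40.5 ± 7.24 in shCdGAP (SD, n = 3). Inadl held 14.1%, 19.7% and 20.9% of the sum of Inadl and its paralog Mpdz in shCON and 73.7%, 60.1% and 54.7% in shCdGAP. Here one scaffold rose while the other fell: Mpdz, at 3.13 ± 0.269 FPKM in shCON and 1.74 ± 0.323 in shCdGAP, fell by 0.60 on the log2 scale (adjusted p = 0.0217, limma). This call was lost when the replicate number was blocked on (adjusted p = 0.0598) and without shCON replicate 1, 2 or 3 or shCdGAP replicate 2 (adjusted p = 0.0737, 0.0867, 0.0736 and 0.0699).

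Of the Crumbs genes, Crb2 rose beside Crb3. Crb2, a larger Crumbs protein, read 0.433, 0.575 and 0.714 FPKM in shCON and 2.12, 4.33 and 3.77 in shCdGAP (log2 fold change 1.45, or 2.34 with 0.1 FPKM added, adjusted p = 0.00660, limma). Crb1 was at most at 0.0103 FPKM in any library. The 3 genes summed to 0.961 ± 0.306 FPKM in shCON and 7.30 ± 0.816 in shCdGAP. The share of Crb3 in this sum overlapped between the groups, at 27.2%, 47.7% and 37.3% in shCON and 69.3%, 47.4% and 44.2% in shCdGAP.

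Pard3 held 94.1% ± 0.920 of the sum of Pard3 and Pard3b in shCON and 85.6% ± 0.821 in shCdGAP (SD, n = 3). Pard3b rose in the same libraries, from 0.287 ± 0.0368 FPKM to 0.758 ± 0.0963 (0.45 on the log2 scale, or 1.15 with 0.1 FPKM added, adjusted p = 0.00643, limma). Pard6b was the main Par6 transcript in all libraries, at 62.3% to 76.2% of the 3 genes. Around it Pard6a rose from 2.49 ± 0.508 FPKM to 4.37 ± 0.251 (0.63, adjusted p = 0.0216, limma) and Pard6g fell from 1.49 ± 0.538 to 0.346 ± 0.179 (-0.87, adjusted p = 0.0205). The call on Pard6a did not hold without shCON replicate 2 or 3 or shCdGAP replicate 2 (adjusted p = 0.102, 0.0937 and 0.0816). That on Pard6g did not hold without shCON replicate 2 or shCdGAP replicate 2 or 3 (adjusted p = 0.0774, 0.0757 and 0.0598). Prkci made up 86.2% to 93.5% of Prkci and Prkcz over the 6 libraries, and the groups overlapped. Prkcz, the zeta kinase, read 1.34, 1.80 and 1.5 FPKM in shCON and 4.37, 2.47 and 2.44 in shCdGAP and did not pass (0.66 on the log2 scale, adjusted p = 0.0672, limma) except without shCdGAP replicate 1 (0.45, adjusted p = 0.0179) or both libraries numbered 1 (0.39, adjusted p = 0.0165).

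Dlg1 held 32.6% ± 1.64 of the 5 Dlg genes in shCON and 38.9% ± 0.621 in shCdGAP (SD, n = 3). Dlg5, the other abundant Dlg gene, stood at 25.7 ± 1.04 FPKM in shCON and 20.1 ± 3.34 in shCdGAP and did not pass (adjusted p = 0.122, limma). Dlg4 did not pass either (-0.74 on the log2 scale, adjusted p = 0.102), but did with the replicate block (adjusted p = 0.0395). Without shCdGAP replicate 1 both passed as lower, with adjusted p of 0.00467 for Dlg5 and 0.00682 for Dlg4, and likewise without both libraries numbered 1 (0.00281 and 0.00300). Dlg2 was at most at 0.0100 FPKM. Dlg3 fell from 0.190 FPKM in shCON, on 28, 25 and 26 reads, with 0, 1 and 0 reads left in shCdGAP (adjusted p = 0.0156, limma). At so few reads its fitted log2 fold change depends on the constant added, at -0.25 with 1 FPKM and -1.49 with 0.1 FPKM. Its call did not hold without shCON replicate 3 or shCdGAP replicate 2 (adjusted p = 0.0529 and 0.0611). Scrib held 60.7% ± 1.79 of the summed FPKM of the LAP genes, whose proteins pair leucine-rich repeats with PDZ domains, in shCON and 46.5% ± 8.75 in shCdGAP. Erbb2ip, which encodes the ErbB2-binding LAP protein Erbin, rose from 18.7 ± 0.698 to 28.5 ± 3.93 FPKM (0.58, adjusted p = 0.0206, limma), and Lrrc1, another LAP gene, from 3.19 ± 0.0911 to 5.42 ± 0.587 (0.61, adjusted p = 0.0113). The call on Erbb2ip did not hold without shCON replicate 1, 2 or 3 or shCdGAP replicate 2 (adjusted p = 0.0603, 0.0942, 0.0939 and 0.0629). That on Lrrc1 did not hold without shCON replicate 2 or 3 (adjusted p = 0.0589 and 0.0617).

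Over the 8 families, the shares of Llgl2, Inadl, Pard3, Dlg1 and Scrib did not overlap between the groups (exact 2-sided permutation p = 0.10 each, the smallest that 3 against 3 libraries allow, and 0.16 after Benjamini-Hochberg adjustment over 8 families). The shares of Crb3, Pard6b and Prkci overlapped (exact permutation p = 0.30, 0.30 and 0.60). Leaving out shCdGAP replicate 1 moved some of these differences, given in percentage points with the value over all libraries in brackets: that of Scrib was -9.11 (-14.2), that of Crb3 8.39 (16.2), that of Pard6b -3.27 (-5.83) and that of Prkci -0.0373 (-2.18).

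**Figure D3:**
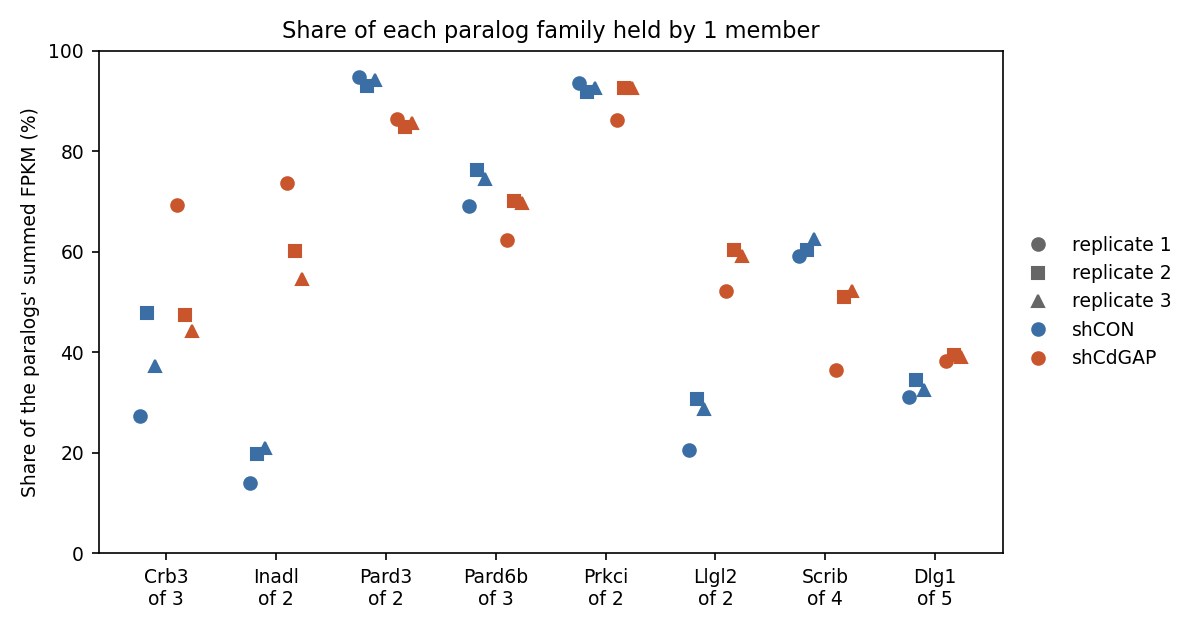
Share of the summed FPKM of a paralog family held by 1 member (vertical axis, %), per library, with colour giving the group and shape the replicate; the number under each name is the family's size. The highest shCON values of Inadl (20.9%) and Llgl2 (30.7%) lie under their lowest shCdGAP values (54.7% and 52.1%), and Prkci is at 86.2% or more in all 6 libraries.

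The wider pathway was read from 8 further lists, together 77 genes, of which 65 were tested. In these 15 rose, 6 fell and 44 did not pass (32.3% called, against 21.0% of all tested genes), with a median log2 fold change of 0.035. The counts moved with single libraries, as did those over all genes. Without shCON replicate 1, 9 rose and 4 fell, where 5.21% of all tested genes were higher and 7.57% lower. Without shCON replicate 2, 6 rose and 2 fell, where 3.48% of all tested genes were higher and 5.70% lower. Without shCON replicate 3, 6 rose and 2 fell, where 3.70% of all tested genes were higher and 6.18% lower. Without shCdGAP replicate 1, 20 rose and 14 fell, where 19.9% of all tested genes were higher and 20% lower. Without shCdGAP replicate 2, 7 rose and 1 fell, where 4.84% of all tested genes were higher and 6.11% lower. Without shCdGAP replicate 3, 12 rose and 3 fell, where 7.53% of all tested genes were higher and 8.39% lower. Without both libraries numbered 1, 26 rose and 15 fell, where 24.3% of all tested genes were higher and 24.0% lower. With the replicate block, 14 rose and 6 fell, where 8.37% of all tested genes were higher and 9.86% lower. Of the 14 tested genes in the further Crumbs, Par and Scribble lists, the 8 that passed are given above. Cdc42 and Rac1, the substrates of CdGAP, stood at 120.1 ± 2.41 and 159 ± 14.5 FPKM in shCON and at 123 ± 6.69 and 174 ± 17.9 in shCdGAP, and did not pass (log2 fold changes 0.030 and 0.12, adjusted p = 0.848 and 0.529, limma).

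Among 13 tested genes of the Par-1, Par-4 and Par-5 list, 2 rose and 0 fell (15.4% called, against 21.0% of all tested genes). These kinases and 14-3-3 proteins keep the apical and lateral sets apart, and the list median was 0.040. Ywhaq, a 14-3-3 gene, rose from 137 ± 10.2 to 219.7 ± 14.4 FPKM (adjusted p = 0.00761, limma). Mark2, a Par-1 kinase, rose from 15.4 ± 0.471 to 21.2 ± 2.02 (0.43 on the log2 scale, adjusted p = 0.0315). The call on Mark2 did not hold without shCON replicate 1, 2 or 3 or shCdGAP replicate 2 or 3 (adjusted p = 0.0975, 0.125, 0.112, 0.118 and 0.0813).

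Among 17 tested regulators and partners 4 rose and 1 fell (29.4% called, against 21.0% of all tested genes). The list median was -0.060. Tgfbr1, encoding the receptor kinase whose complex acts on Par6, rose from 16.1 ± 0.758 to 33.6 ± 0.477 FPKM (1.02 on the log2 scale, adjusted p = 8.25e-04, limma). Wwc1, encoding Kibra, and the angiomotin genes Amot and Amotl2 rose by 0.70, 0.69 and 0.67 on the log2 scale (adjusted p = 0.0172, 0.0300 and 0.0186), and Amotl1 fell by 0.44 (adjusted p = 0.0307). Angiomotins bind the Crumbs complex scaffolds. The call on Wwc1 did not hold without shCON replicate 1, 2 or 3 or shCdGAP replicate 2 (adjusted p = 0.0679, 0.0760, 0.0693 and 0.0716). For Amot it did not hold without shCON replicate 1, 2 or 3 or shCdGAP replicate 2 (adjusted p = 0.0747, 0.109, 0.120 and 0.102), and for Amotl2 without shCON replicate 1, 2 or 3 or shCdGAP replicate 2 (adjusted p = 0.0716, 0.0786, 0.0765 and 0.0702). For Amotl1 it did not hold without shCON replicate 1, 2 or 3 or shCdGAP replicate 2 or 3 (adjusted p = 0.0820, 0.114, 0.0875, 0.108 and 0.0616) or with the replicate block (adjusted p = 0.0665).

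Of 7 tested junction proteins that bind polarity complexes 2 rose and 0 fell (28.6% called, against 21.0% of all tested genes). The list median was 0.24. Tjp3, encoding ZO-3, a junction partner of the Inadl product, rose from 0.241 ± 0.0591 to 1.61 ± 0.371 FPKM (1.07 on the log2 scale, or 2.32 with 0.1 FPKM added, adjusted p = 0.00229, limma). Pvrl2, encoding nectin-2, rose by 0.58 (adjusted p = 0.0407). Its call did not hold without shCON replicate 2 or 3 or shCdGAP replicate 2 or 3 (adjusted p = 0.154, 0.151, 0.127 and 0.0665), without a filter (adjusted p = 0.0646) or with library size scaling (adjusted p = 0.0526).

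Of 10 tested apical membrane and traffic genes 2 rose and 0 fell (20% called, against 21.0% of all tested genes). The list median was 0.17. Rab11a, the GTPase of recycling endosomes that carries apical cargo, rose from 52.4 ± 3.24 to 98.2 ± 11.2 FPKM (0.89 on the log2 scale, adjusted p = 0.00420, limma). Rab8a, which acts with it, rose from 14.9 ± 0.932 to 20.6 ± 1.22 (0.45, adjusted p = 0.0241). Its call did not hold with the replicate block (adjusted p = 0.0563) or without shCON replicate 1, 2 or 3 or shCdGAP replicate 2 or 3 (adjusted p = 0.0754, 0.0831, 0.0996, 0.0622 and 0.0680).

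**Figure D4:**
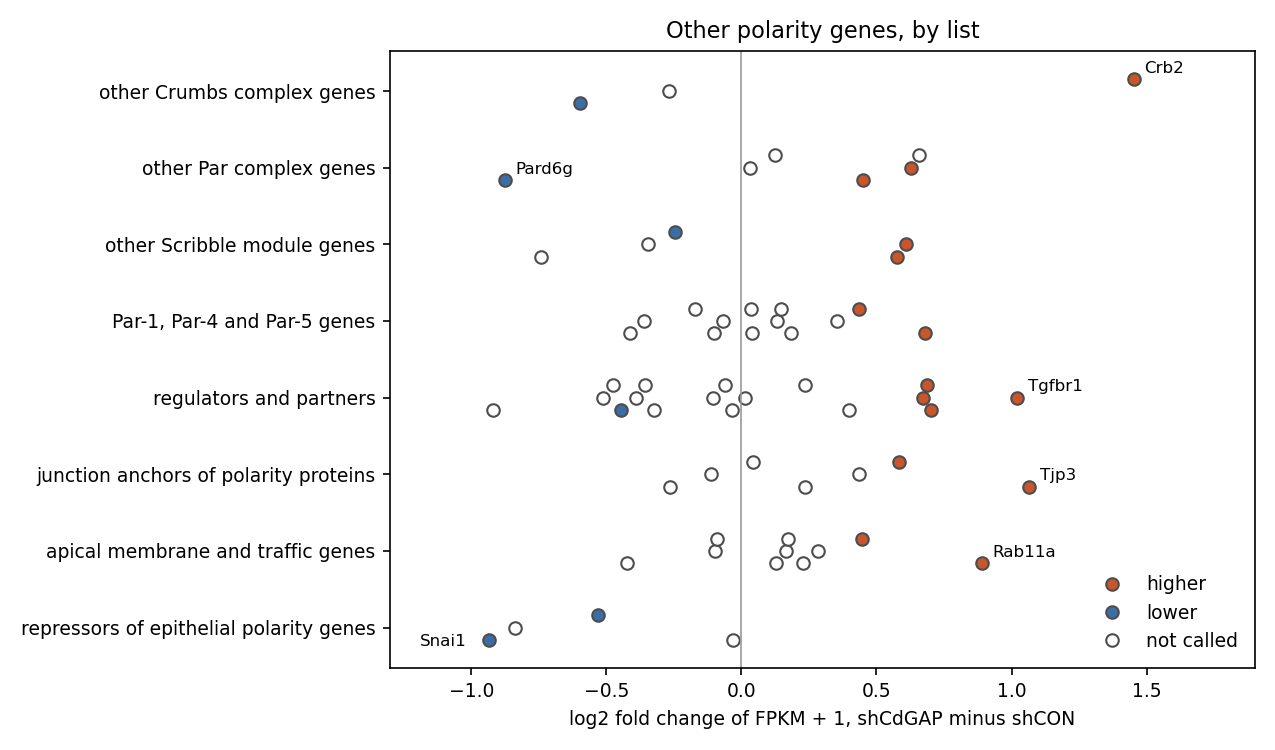
Log2 fold change of FPKM + 1, shCdGAP minus shCON (horizontal axis), of the 65 tested genes in 8 further polarity lists, 1 point per gene; filled points passed an adjusted p of 0.05 in limma. The 15 higher genes reach 1.45 (Crb2) and the 6 lower ones -0.93 (Snai1), and 44 points are open.

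Of 4 tested repressors of epithelial polarity genes 2 fell and 0 rose (50% called, against 21.0% of all tested genes). Snai1 read 11, 10.3 and 10.4 FPKM in shCON and 5.37, 5.20 and 4.62 in shCdGAP (-0.93 on the log2 scale, adjusted p = 0.00179, limma), with no overlap. Zeb2 read 2.23, 1.46 and 1.56 FPKM in shCON and 0.972, 0.825 and 0.883 in shCdGAP (-0.53, adjusted p = 0.0330). It did not pass without shCON replicate 2 or 3 or shCdGAP replicate 2 or 3 (adjusted p = 0.0677, 0.0842, 0.116 and 0.0801) or without a filter (adjusted p = 0.0589). Zeb1 read 3.41, 2.97 and 3.09 FPKM in shCON and 2.89, 3.12 and 3.17 in shCdGAP, with overlap and an interval from -0.27 to 0.21 (adjusted p = 0.850). Snai2 did not pass (-0.84, adjusted p = 0.0887) except with the replicate block (adjusted p = 0.0218), without shCdGAP replicate 1 (0.00463) or without both libraries numbered 1 (6.42e-04). Cdh1, the E-cadherin gene, rose from 50.7 ± 11.1 to 168 ± 16.1 FPKM in the same libraries (1.73, adjusted p = 0.00220, limma), and Erbb2 fell by 1.79 on the log2 scale (adjusted p = 0.00486).

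The promoter letters of the members were read from RefSeq (GRCm38.p6, the build of mm10), since the repressors named above are known to bind E-boxes. Windows of 250 bases before each annotated start were found for 7 of the 10 members, Inadl under its name Patj; Mpp5, Llgl2 and Scrib were not matched. The E-box CAGGTG, which reads CACCTG on the other strand, was searched on both strands. It occurred in 17.2% of all 32851 RefSeq windows of this length and in at least 1 window of 19.4% of genes. It occurred in 2 of 3 members that rose and have a window (Crb3 and Inadl, not Prkci) and in 2 of 4 that did not pass (Pard6b and 1 of the windows of Pard3, not Llgl1 or Dlg1).

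In the first RefSeq window of Crb3 the matches began 118, 63 and 7 bases before the start, in that of Inadl 19 bases before, and in that of Pard6b 141 and 86 bases before. In GENCODE M21 the Crb3 gene begins at 57059105, before its window. Within the windows, annotated exon begins 60 bases before the RefSeq start in Crb3 and 41 bases before it in Inadl. The match of Inadl and the last match of Crb3 thus lie in annotated exon, and the middle match of Crb3 runs into it. The matches of Pard3, which did not pass, began 220, 203 and 166 bases before its second RefSeq start and are not printed. That start lies within the annotated Pard3 gene. The matches of Crb3 and Inadl, which rose, and of Pard6b, which did not pass, follow with 10 bases on each side. All are on the plus strand, 5′ to 3′, with the E-box in capitals.
Crb3, chr17:57062073-57062098: cctgtgcttaCACCTGctcatttccg
Crb3, chr17:57062128-57062153: gttcccgttaCAGGTGctctggcggc
Crb3, chr17:57062184-57062209: cagccaggctCAGGTGcacaagccgg
Inadl, chr4:98395797-98395822: gagagcggccCAGGTGaggaggcggc
Pard6b, chr2:168080853-168080878: gccgcgggcgCAGGTGcgcgcttccc
Pard6b, chr2:168080908-168080933: gccgaagctgCAGGTGagcgcgcgca

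The upstream stretches of Crb3 and Pard6b show where these matches lie, beside Prkci, which rose and has none. They stop before the first exon base that GENCODE M21 annotates within the window, so the Crb3 stretch holds 1 of its 3 matches whole. That stretch lies inside the annotated Crb3 gene. A match is a set of letters and not a measured binding site, and its absence says only that these letters are not in the window.
Crb3, chr17:57061951-57062140: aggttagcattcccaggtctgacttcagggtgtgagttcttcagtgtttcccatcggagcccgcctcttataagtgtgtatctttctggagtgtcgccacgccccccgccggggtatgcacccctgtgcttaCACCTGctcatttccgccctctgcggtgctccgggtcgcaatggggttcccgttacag
Pard6b, chr2:168080754-168081003: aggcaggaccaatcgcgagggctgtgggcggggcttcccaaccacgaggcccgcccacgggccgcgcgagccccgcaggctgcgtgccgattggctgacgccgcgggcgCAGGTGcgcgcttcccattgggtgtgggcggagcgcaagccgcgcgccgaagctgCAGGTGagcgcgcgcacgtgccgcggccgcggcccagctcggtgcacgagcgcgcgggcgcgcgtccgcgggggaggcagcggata
Prkci, chr3:30995521-30995746: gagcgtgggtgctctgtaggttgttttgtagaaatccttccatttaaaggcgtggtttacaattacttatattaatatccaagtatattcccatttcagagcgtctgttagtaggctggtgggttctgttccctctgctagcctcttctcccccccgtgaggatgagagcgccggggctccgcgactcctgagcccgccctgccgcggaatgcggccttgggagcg

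The genes whose values over the 6 libraries were most like those of Crb3 were Atl3, Ppapdc1b and Abca3, with Pearson's r of log2(FPKM + 1) of 0.999, 0.998 and 0.998 among 8095 tested genes averaging 5 FPKM or more. Atl3 shapes the endoplasmic reticulum and Abca3 is a lipid transporter. Llgl2 was the member of second largest change on that scale; by the ratio of means, and with 0.1 FPKM added, Inadl changed more. Those most like Llgl2 were Atl3, Gca and Rab11b, with r of 0.998, 0.998 and 0.998. Rab11b, a close relative of Rab11a, averaged 18.9 ± 0.994 FPKM in shCdGAP and 10.4 ± 0.604 in shCON (SD, n = 3). These points share 2 group means and the same libraries, and the r of 392 genes with Llgl2 lay over 0.95, so the coefficients describe likeness over 6 libraries and carry no test.

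Replicate 1 of shCdGAP, the library with the least Arhgap31, also differed from its group in the members, and by different signs. It stood apart far more in Aurka and Ect2 of the regulator list, which encode a mitotic kinase and a cytokinesis exchange factor and are named here after their values were seen. Aurka read 4.03, 84.4 and 82.6 FPKM in shCdGAP and 45.8, 69.4 and 72.6 in shCON, and Ect2 5.67, 68.0 and 69.5 and 38.4, 47.0 and 45.3. Neither passed over all libraries (adjusted p = 0.609 and 0.756, limma). Without shCdGAP replicate 1 their log2 fold changes were 0.44 and 0.65 (adjusted p = 0.120 and 0.00378), and without both libraries numbered 1 0.23 and 0.57 (adjusted p = 0.0267 and 7.78e-04). The part of these genes' low level in the member values was not tested. Relative to the mean of replicates 2 and 3 on the log2 scale, replicate 1 was higher for Llgl1 (0.58), Inadl (0.44), Dlg1 (0.39), Crb3 (0.39), Pard3 (0.37) and Llgl2 (0.16). It was lower for Scrib (-0.55), Pard6b (-0.29), Mpp5 (-0.22) and Prkci (-0.17). Without that library the rises of Crb3, Inadl, Llgl2 and Prkci were 1.69, 1.09, 1.52 and 0.64 (adjusted p = 4.31e-04, 4.69e-04, 4.95e-04 and 0.00110, limma), in a fit where 39.9% of tested genes passed and 19.9% passed as higher.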

How the data were processed

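RNA of 6 libraries of cultured mammary tumor explant cells was measured by sequencing. Per the submitters' processing notes, the authors used Trimmomatic, TopHat2 2.0.13, featureCounts, DESeq2 and the mouse build mm10, with no roles or order stated. Annotation release and strand handling: not given in the sources used here. The authors deposited 1 table of 41214 genes with FPKM per library. Further columns, per the file headers, give for shCdGAP over control each gene's mean signal, its log2 fold change, standard error, test score and p-value, raw and adjusted.

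Reads were recovered from the deposited FPKM and mean signal with 1 size factor per library, and 100% of values were whole within 1e-06. Tested were the 13483 genes with 10 or more reads, at median depth, in 3 or more libraries and 15 or more in total. The main test was limma 3.58.1 in R 4.3.3 on log2(FPKM + 1), with trend and robust empirical Bayes, 2-sided, with Benjamini-Hochberg adjustment over all tested genes and a threshold of 0.05. Fold changes on this scale understate those of low genes. Paralog shares were compared by exact permutation over libraries (scipy 1.17.1). The fit was checked on simulated reads. These had the same spread setting for every gene and no outlying library, so the check does not cover a library such as shCdGAP replicate 1. Gene positions came from GENCODE M21 and promoter windows from RefSeq, both of the same build as mm10.

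Alternatives were a pseudocount of 0.1 FPKM, no filter, library size scaling, limma-voom on the recovered reads, the replicate number as a block, each library left out, both libraries numbered 1 left out and, added after the data were seen, quantile scaling. The main test took no account of replicate numbers, and only the block treated them as pairs. After subtracting group means, libraries of the same number had correlations of 0.43 (number 1), 0.39 (number 2) and 0.34 (number 3). No label gives this pairing, and the data do not settle it for numbers 2 and 3. There shCON 3 reached 0.35 with shCdGAP 2 and 0.34 with shCdGAP 3. The members and gene lists were chosen with earlier results of these data known. Named are the 10 members, Arhgap31, Cdh1, Erbb2, Zeb1, Zeb2, Snai1, Snai2, Cdc42 and Rac1, up to 5 members of each other list that passed the threshold, the paralogs, and the 3 genes most like each of the 2 members of largest change on the log2(FPKM + 1) scale. Cd68, Aurka and Ect2 fall outside this rule and were named after their values were seen.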

Additional observations from a re-analysis of the deposited data

How the results depend on the processing

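The 4 rises of members held in direction and test under all 13 alternatives, except that of Prkci without shCON replicate 3. The count of members called higher was 3 to 4 with single libraries left out, where 3.48% to 19.9% of all tested genes were higher. It was 5 without both libraries numbered 1, where 24.3% were higher, and 4 elsewhere, and 0 members fell in any fit. Under the replicate block 4 members were higher (adjusted p from 0.00846 to 0.0276, limma), and of the genes in the other lists 14 were higher and 6 lower. Of the named genes, Mpdz, Amotl1 and Rab8a lost their call with the block and Snai2 and Dlg4 gained one, and no other call changed. Pard3 turned to a value above 0 without shCON replicate 1 (0.011), shCdGAP replicate 2 (0.050) or shCdGAP replicate 3 (0.034) and with quantile scaling (0.0059), which was chosen after seeing the data; its lowest value with a library left out was -0.14. Pard6b turned without both libraries numbered 1 (0.013). Zeb1 turned without shCON replicate 1 (0.012), without both libraries numbered 1 (0.042) and with quantile scaling (0.0031), and its lowest value with a library left out was -0.065. Cdc42 turned below 0 with library size scaling (-0.028), with quantile scaling (-0.059) and without shCdGAP replicate 3 (-0.011), and its highest value with a library left out was 0.066. Aurka and Ect2 turned to values above 0 without shCdGAP replicate 1 (0.44 and 0.65) and without both libraries numbered 1 (0.23 and 0.57), and their lowest values with a library left out were -1.60 and -1.05. The other lists had 6 to 20 genes higher and 1 to 14 lower with single libraries left out, and 26 and 15 without both libraries numbered 1. The difference in the share of Pard6b was -5.83 points by FPKM and -0.0087 by recovered reads, which are not per length. Among genes averaging 1 FPKM or more, the medians of chromosomes 2, 4 and 17 were -0.17, -0.12 and 0.33. With single libraries left out those of chromosomes 2, 4, 11 and 16 ran from -0.21 to -0.17, from -0.15 to -0.13, from -0.13 to -0.10 and from -0.30 to -0.27. The cause of these shifts was not tested. Of the 10 members Crb3 had the fewest reads, 5 to 23 per control library.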
